A study of Mus musculus with 11 samples.

Results

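Chemokines and chemokine receptors were taken as the protein-coding genes of the mouse annotation whose symbols name a CC, CXC, XC or CX3C ligand, a receptor for one of these classes, or an atypical receptor (Ackr1 to Ackr4). This rule gave 58 of 21951 protein-coding genes: 36 ligands, 18 receptors and 4 atypical receptors. An ATAC-seq peak was assigned to a gene when it overlapped the gene body extended by 10 kb on each side, here called the gene window. Of 298164 peaks called in 9 libraries, 575 lay in these windows, and they merged into 158 of the 71400 intervals that the peaks of all libraries form together. At least 1 peak was found at 43 of the 58 genes.

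Chromatin accessibility was measured in 4 cell types sorted from untreated C57BL/6 mice a few weeks old: CD4SP thymocytes, the CD4 single-positive T cells of the thymus (2 libraries), NKT thymocytes, the innate-like T cells that bind CD1d with a lipid (2 libraries), and, from bone marrow, CLP, the common lymphoid progenitors (3 libraries), and ILCP, the precursors of innate lymphoid cells (2 libraries). NKT cells were enriched with CD1d tetramers. CLP were gated by IL-7Rα, cKit, Sca-1 and Flt3. ILCP were gated by IL-7Rα, α4β7 and eGFP, a reporter of Zbtb16, the gene of the transcription factor PLZF, so their eGFP+ gate rests on a reporter allele. The study compared NKT with CD4SP thymocytes and ILCP with CLP. NKT and ILCP are the PLZF-expressing type of each pair.

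The libraries held 19343 to 41535 peaks, the fewest in CLP replicate 1, and the study's methods give only a range of read numbers, not the depth of each library. All 6 T lineage start sites examined carried a peak in the 4 thymic libraries, and 3 or 4 of them did in each bone marrow library: Cd3e and Cd3g, like Cd4, were open in no bone marrow library, whereas Cd3d and Lat were open in all 9 libraries and Cd5 and Bcl11b in most. Flt3 showed the reverse, Rag1 carried a peak in the 3 CLP libraries alone, and Zbtb16 carried one in both NKT and both ILCP libraries, in CLP replicate 2 and in no CD4SP library. The marker lists of single types were less clear: 4 of 6 ILCP markers were open in all ILCP and all thymic libraries, Il18r1 was open in the thymic libraries and in no ILCP library, Cd244a in no NKT library, Tbx21 in NKT replicate 2 alone, and the CLP marker Notch1 in every thymic library. The CD4SP marker Zbtb7b was open in all libraries but CLP replicate 1, and the NKT marker Il2rb in both CD4SP and both NKT libraries. Of the B cell start sites, 0 or 1 of 4 was open in each library (Pax5, with none at Cd79a and Ms4a1), and of the myeloid ones 0 to 2 of 5 (Cebpa in 8 libraries, Csf1r in CLP replicate 3 and Mpo in CLP replicate 2, with none at Elane and Lyz2). The start site of the erythroid gene Klf1 had a peak in all 9 libraries. Of the CD8 cell markers, Cd8b1 was open in both CD4SP libraries and NKT replicate 2, and Cd8a in CD4SP replicate 2 and CLP replicate 2. The part of these markers in the results was not tested. In bulk libraries, fewer cells with an open site and a less open site in every cell cannot be told apart.

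Chemokines are small secreted proteins that bind G protein-coupled receptors and guide the migration of leukocytes. Atypical receptors bind chemokines without G protein signalling and mostly remove them. In the thymus and bone marrow, Cxcr4 and its ligand Cxcl12 retain progenitors, Ccr9 and its ligand Ccl25 guide thymic settling, and Ccr4 and Ccr7 are acquired as thymocytes mature and move to the medulla.

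Receptor genes were richer in peaks in thymic than in bone marrow cells, whereas ligand genes were not. The receptor windows held 50 and 70 peaks in CD4SP, 55 and 66 in NKT, 12, 33 and 33 in CLP, and 15 and 14 in ILCP. Per 10,000 peaks of the library this was 14.9 and 18.5 in CD4SP and 15.8 and 17.0 in NKT, against 6.20, 7.95 and 8.22 in CLP and 5.70 and 5.43 in ILCP. Every thymic library lay above every bone marrow library. The difference of means was 9.85 peaks per 10,000 (exact permutation test of 4 against 5 libraries, two-sided, p = 0.00794, the smallest this design allows; 0.0317 after Benjamini-Hochberg adjustment over 16 comparisons of peak and start site numbers). Without the unusually long gene models described below, that is, with RefSeq gene bodies, it was 7.01 (exact permutation p = 0.00794), and with unextended gene bodies 5.43 (exact permutation p = 0.00794). Ligand windows held 16 and 22 peaks in CD4SP, 23 and 29 in NKT, 13, 23 and 23 in CLP, and 24 and 21 in ILCP. Their thymic minus bone marrow difference was -0.885 per 10,000 (exact permutation p = 0.389; adjusted 0.582). With equal numbers of the highest-scoring peaks it was -2.33 (exact permutation p = 0.0159), so lower ligand numbers in the thymus passed the threshold under that setting. Thymic cells differed from bone marrow cells in cell type, stage and organ, and these cannot be told apart. The thymic against bone marrow tests, here and below, take each library as a unit. Their p therefore reflects the spread between libraries and not that between the cell types of an organ.

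**Figure D1:**
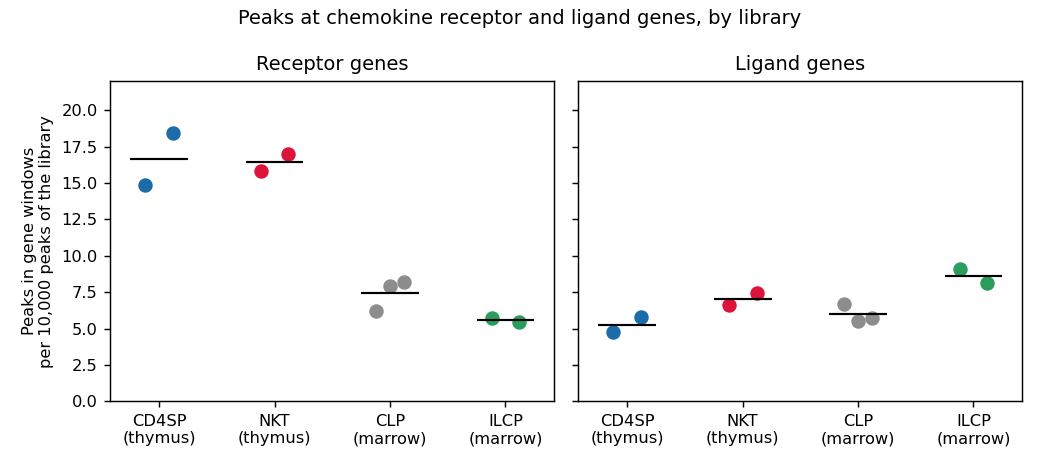
Peaks in the windows of receptor genes (left) and ligand genes (right) per 10,000 peaks of each library, on the vertical axis, by cell type. Points are libraries and bars are means (2 libraries each for CD4SP, NKT and ILCP, 3 for CLP). At receptors the thymic libraries span 14.9 to 18.5 and the bone marrow libraries 5.43 to 8.22, while at ligands all 9 libraries lie between 4.76 and 9.12.

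Over ligands, receptors and atypical receptors together, the windows held 67 and 95 peaks in CD4SP, 82 and 99 in NKT, 26, 60 and 62 in CLP, and 44 and 40 in ILCP. The mean number was 81 ± 19.8 (SD, n = 2) in CD4SP and 90.5 ± 12.02 (SD, n = 2) in NKT. The difference of 9.5 was smaller than the spread of the CD4SP libraries (exact permutation p = 0.667; the smallest possible is 0.333). CLP held 49.3 ± 20.2 peaks (SD, n = 3) and ILCP 42 ± 2.83 (SD, n = 2), and ILCP minus CLP was -7.33 (exact permutation p = 0.7; the smallest possible is 0.1). Per 10,000 peaks that difference turned to 1.67 (exact permutation p = 0.2). The sum of both differences, which asks whether NKT and ILCP depart together from CD4SP and CLP, was 2.17 peaks (exact permutation p = 0.85; the smallest possible is 0.0167). The difference between both differences was 16.8 (exact permutation p = 0.4). With so few libraries, neither comparison of the study could pass 0.05 on its own, so these tests say nothing about stability. The thymic minus bone marrow difference per 10,000 peaks was 8.42 (exact permutation p = 0.00794; adjusted 0.0317).

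Gene by gene, 10 of the 17 receptors with a peak held more peaks in thymic than in bone marrow libraries at an exact permutation p under 0.05, against 1 of 22 ligands and 0 of 4 atypical receptors. Among all 16994 genes with a peak, 21% passed in this direction and 6.87% in the other. Among the 10 receptors were Ccr2, Ccr7, Ccr8, Ccr9, Ccr10, Cx3cr1, Cxcr4, Cxcr5 and Cxcr6, the ligand was Ccl17, and 1 member, Ackr3, passed in the other direction. Over all members the share was 11 of 43 (25.6%), close to that of all genes. No gene passed after adjustment over all genes tested, the lowest adjusted p being 0.0696 (exact permutation tests with Benjamini-Hochberg adjustment), so these counts rest on unadjusted values.

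**Figure D2:**
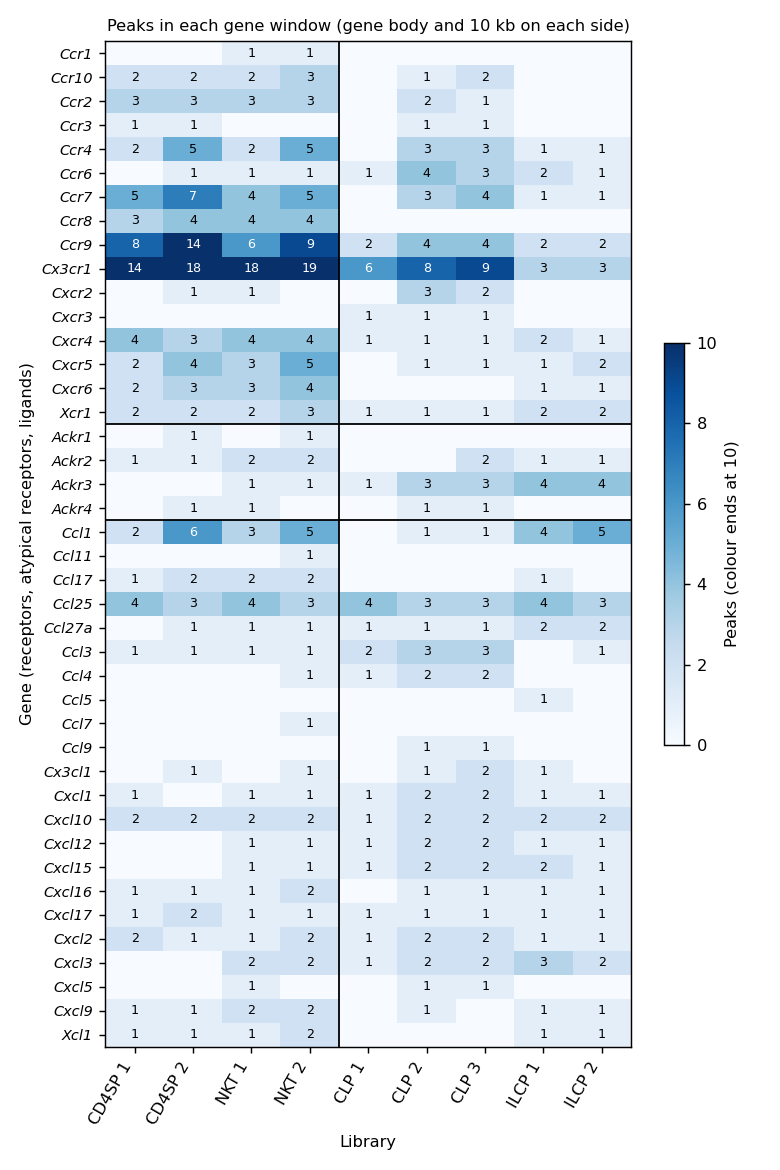
Number of peaks in the window of the genes described here that had a peak (rows; receptors at the top, then atypical receptors, then ligands) in each of the 9 libraries (columns; thymic to the left of the vertical line). Darker blue marks more peaks, with the colour ending at 10, and empty cells hold none. The fullest window is that of Cx3cr1, with 14 to 19 peaks in thymic and 3 to 9 in bone marrow libraries.

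The start sites followed the same division. A start site was counted as open when a peak lay within 1 kb of it. Receptor start sites were open at 8 and 10 genes in CD4SP, 11 and 11 in NKT, 3, 6 and 4 in CLP, and 3 and 4 in ILCP. The difference of means was 6 genes (exact permutation p = 0.00794; adjusted 0.0317), with no overlap between thymic and bone marrow libraries. These numbers were not scaled to the peaks of each library, and thymic libraries held 5640 more peaks on average (exact permutation p = 0.302). No share over all genes is set beside them, so whether the separation is particular to receptors was not tested. Ligand start sites were open at 4, 2, 6 and 7 genes in the thymic libraries and at 4, 7, 8, 6 and 6 in those of bone marrow (difference -1.45, exact permutation p = 0.31). Ccr4, Ccr8 and Cxcr6 were open in all 4 thymic libraries and in no bone marrow library. Cxcr4 and Ccl25 were open in all 9 libraries. Cxcr3 and Ccl3 were open in the 3 CLP libraries and in no other.

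**Figure D3:**
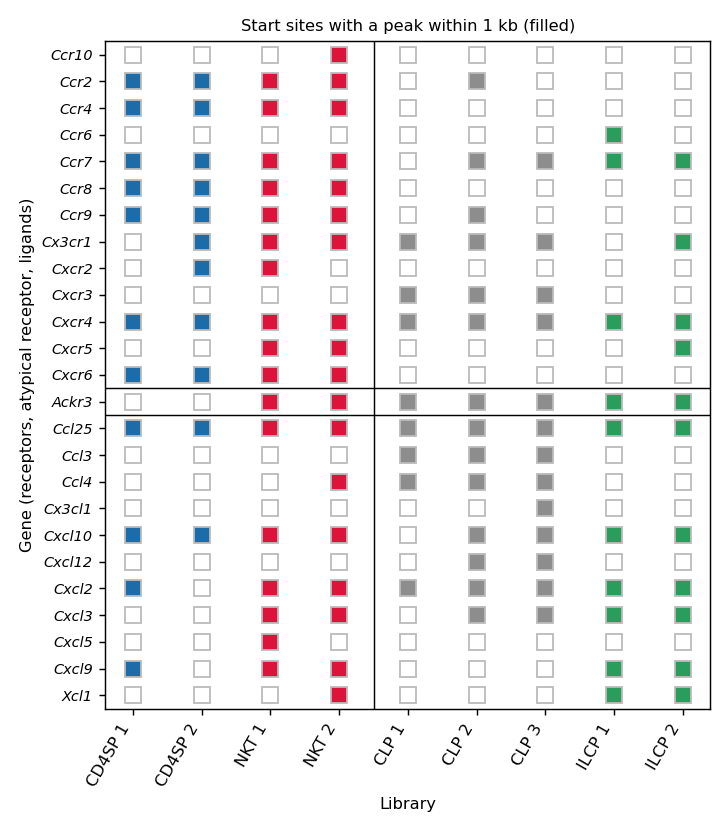
Start sites of chemokine and receptor genes described here (rows) with a peak within 1 kb in at least 1 library; filled squares mark a peak, coloured by cell type, and columns are libraries. The rows of Ccr4, Ccr8 and Cxcr6 are filled in the 4 thymic columns alone, and those of Cxcr3 and Ccl3 in the 3 CLP columns alone.

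The longest run of intervals open in the thymus alone lay between Cx3cr1 and Ccr8 on chromosome 9. Cx3cr1 (ENSMUSG00000052336.7) is the receptor of Cx3cl1 and Ccr8 (ENSMUSG00000042262.5) binds Ccl1. An interval was called thymic-only when it was open in all 4 thymic and in no bone marrow library. This held for 20 of the 158 member intervals (12.7%) and for 7.04% of all intervals, and 17 of the 20 lay at receptors, which held 100 of the 158. Of the 20, 9 lay in the windows of Cx3cr1 and Ccr8, which together held 24 intervals, so much of the member share comes from this locus. The Cx3cr1 window rests on a long gene model described below. From the RefSeq body of Cx3cr1 to that of Ccr8, with 10 kb on each side, 6 of 10 intervals were thymic-only. The Ccr8 window held 3 and 4 peaks in CD4SP, 4 and 4 in NKT, and 0 in each of the 5 bone marrow libraries, a difference of 3.75 (exact permutation p = 0.00794; adjusted over all genes 0.0696). Its start site interval ranked among the top 54.5% and 24.6% of peaks by score in CD4SP and the top 42.4% and 35.7% in NKT. Score ranks within a library are given because the deposited scores have no common scale.

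Further thymic-only intervals lay 7518 and 9322 bp upstream of Ccr8 and 6393, 10174 and 11798 bp upstream of Cx3cr1, on the side that faces Ccr8. The interval 6393 bp upstream of Cx3cr1 was in the top 38.5% and 30.7% in CD4SP and 27.4% and 26.5% in NKT, and that 11798 bp upstream in the top 27.1% and 26.4% in CD4SP and 49.8% and 31.9% in NKT. The Cx3cr1 start site itself was open in CD4SP replicate 2, both NKT, all 3 CLP and ILCP replicate 2 libraries, and thus did not share this pattern. A site 11912 bp downstream of it was open in both NKT libraries (top 90.1% and 59.9%) and in no other library.

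**Figure D4:**
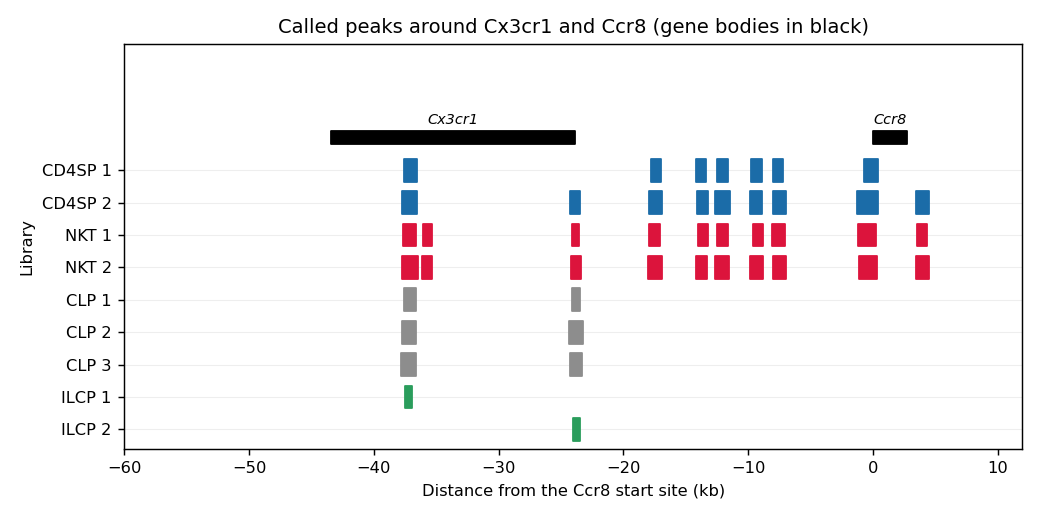
Called peaks (bars, coloured by cell type) in each library (rows) by distance from the Ccr8 start site in kb; black bars are the RefSeq gene bodies of Cx3cr1 and Ccr8. The stretch between Cx3cr1 and Ccr8 carries peaks in all 4 thymic libraries and none in the 5 bone marrow libraries beyond the Cx3cr1 start site.

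The gene models of 4 genes need care, because a long transcript in the GENCODE annotation extends them over neighbours. Cx3cr1 spans 168264 bp (19614 bp in RefSeq), Ccl1 129034 bp (3147 bp), Ccr9 105892 bp (16247 bp) and Cxcr5 50091 bp (14658 bp). The Cx3cr1 window held 14 and 18 peaks in CD4SP, 18 and 19 in NKT, 6, 8 and 9 in CLP, and 3 and 3 in ILCP. It takes in the start sites of Wdr48, Gorasp1, Ttc21a and Csrnp1. With the RefSeq body, Cx3cr1 held 3 and 4 peaks in CD4SP, 5 and 5 in NKT, 2 in each CLP library and 1 in each ILCP library. The order of thymic above bone marrow libraries was therefore the same on both annotations. With RefSeq bodies, 16 member intervals were thymic-only.

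The promoter of Ccr8 is shown because its start site was thymic-only, as are those of Ccr4 and Cxcr6. Each run is the 250 bases before the start in RefSeq's promoter table, or before the most upstream annotated start within 1 kb of it (mm10, GRCm38.p6, strand of the gene), with capitals for matches to the letters searched on both strands. These were TGTGGT and its variant TGCGGT for Runx factors, AGATAA and its variant TGATAA for GATA factors, and CACCTG and its variant CAGCTG for the E-box. For Tcf/Lef factors they were CTTTGAT and its variant CTTTGAA, for T-box factors AGGTGTGA and its variant AGGTGTTA, and for Ets factors ACAGGAAG and its variant CCGGAAGT. T-box letters can overlap the E-box in part, and Tcf/Lef letters those of GATA.
Ccr8 promoter (chr9:120091864-120092113, + strand): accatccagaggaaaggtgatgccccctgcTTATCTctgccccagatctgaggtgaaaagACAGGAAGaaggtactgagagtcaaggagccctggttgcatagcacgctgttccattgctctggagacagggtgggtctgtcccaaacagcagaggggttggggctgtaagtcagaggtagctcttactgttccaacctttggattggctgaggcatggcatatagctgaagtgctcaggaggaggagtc
Ccr4 promoter (chr9:114496563-114496812, - strand): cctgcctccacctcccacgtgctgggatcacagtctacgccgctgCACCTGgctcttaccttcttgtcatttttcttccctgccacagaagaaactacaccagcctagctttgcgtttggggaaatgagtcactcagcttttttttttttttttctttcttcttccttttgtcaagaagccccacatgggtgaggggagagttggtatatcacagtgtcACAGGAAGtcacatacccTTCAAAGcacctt
Cxcr6 promoter (chr9:123806225-123806474, + strand): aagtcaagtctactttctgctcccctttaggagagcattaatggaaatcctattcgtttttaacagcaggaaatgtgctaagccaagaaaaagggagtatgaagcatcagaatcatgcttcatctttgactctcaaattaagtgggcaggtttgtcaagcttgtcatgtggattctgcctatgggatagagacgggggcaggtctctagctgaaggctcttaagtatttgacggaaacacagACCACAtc
The Ccr8 run held a GATA and an Ets match, the Ccr4 run an E-box, a Tcf/Lef and an Ets match, and the Cxcr6 run a Runx match. Of 32851 RefSeq mouse promoters, searched over the same length, 18.6% held a Runx, 16.6% a GATA, 27.7% an E-box, 7.48% a Tcf/Lef, 1.51% a T-box and 5.70% an Ets match. A match describes letters only. The Ccr4 gene body extends further upstream than the start used here.

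Cxcr6 (ENSMUSG00000048521.8), the receptor of Cxcl16 and a marker of innate-like and resident lymphocytes, had 1 interval shared by NKT and ILCP and 4 with no called peak in ILCP. Its window held 2 and 3 peaks in CD4SP, 3 and 4 in NKT, 0, 0 and 0 in CLP, and 1 and 1 in ILCP. The sum of both differences was 2 peaks (exact permutation p = 0.0333), the only member of 43 under 0.05 against 1.57% of all genes tested, and the adjusted p was 1. The 5 intervals of the gene differed from each other. The start site was thymic-only, in the top 56.9% and 49.01% in CD4SP and 22.9% and 30.4% in NKT. An interval 1183 bp upstream was open in both CD4SP libraries and in no other. An interval 5549 bp downstream of the start was open in the NKT libraries alone (top 62.3% and 73.0%). The interval 8104 bp downstream was open in both NKT libraries (top 38.6% and 36.0%) and both ILCP libraries (top 47.2% and 57.8%) and in none of CD4SP or CLP. It is 1361 bp long and, like the whole of Cxcr6, lies inside the body of Fyco1, in an intron.

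**Figure D5:**
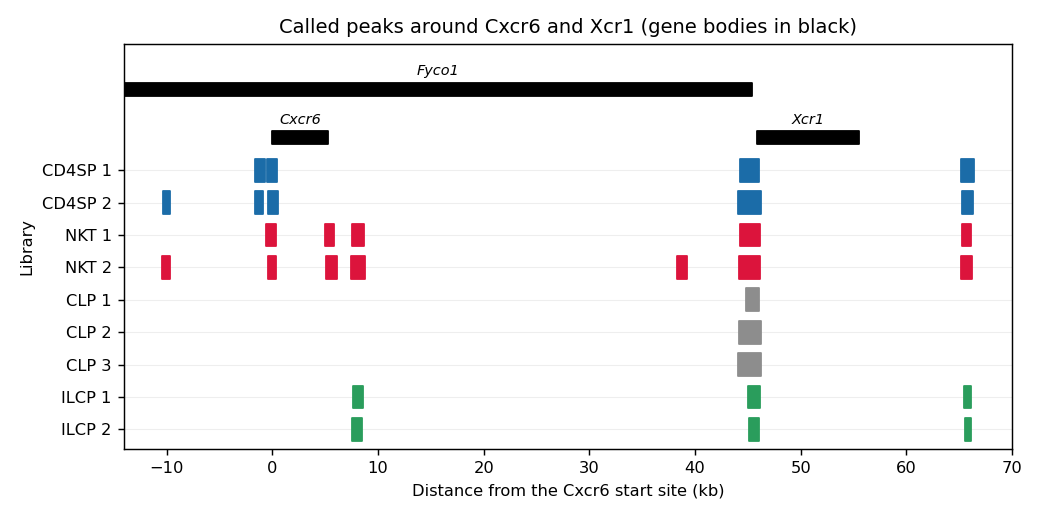
Called peaks (bars, coloured by cell type) in each library (rows) by distance from the Cxcr6 start site in kb; black bars are the bodies of Fyco1, Cxcr6 and Xcr1. The site 8104 bp downstream of the Cxcr6 start carries bars in the 2 NKT and 2 ILCP rows and in no other row.

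Of the 158 member intervals, 2 were open in both NKT and both ILCP libraries and in no CD4SP or CLP library (1.27%, against 0.605% of all intervals). The other lay 10329 bp upstream of Cxcl3 (ENSMUSG00000029379.10), a ligand of Cxcr2 that attracts neutrophils, between genes. It ranked in the top 40.1% and 73.6% in NKT and 24.5% and 52.3% in ILCP. The central 300 bases of both intervals are shown on the forward strand of mm10, with capitals for matches to the same letters.
shared interval of Cxcr6 (chr9:123814431-123814730, + strand): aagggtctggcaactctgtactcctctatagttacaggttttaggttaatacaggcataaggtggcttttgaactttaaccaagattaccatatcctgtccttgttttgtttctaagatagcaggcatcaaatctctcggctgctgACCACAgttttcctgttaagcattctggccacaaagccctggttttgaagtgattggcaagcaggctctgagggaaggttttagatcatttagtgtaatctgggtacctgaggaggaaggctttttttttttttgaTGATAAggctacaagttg
shared interval of Cxcl3 (chr5:90775622-90775921, + strand): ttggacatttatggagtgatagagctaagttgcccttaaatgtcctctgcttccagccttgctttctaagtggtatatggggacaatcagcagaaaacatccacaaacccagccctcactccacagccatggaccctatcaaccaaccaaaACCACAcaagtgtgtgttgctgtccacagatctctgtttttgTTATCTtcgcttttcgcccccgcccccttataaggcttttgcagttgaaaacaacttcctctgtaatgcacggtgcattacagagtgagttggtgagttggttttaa
Both runs held a Runx match, at base 147 of the Cxcr6 run and base 152 of the Cxcl3 run, and a GATA match, at bases 283 and 194. Within 300 bases at the centre, 36.6% of all intervals and 64.4% of all ILCP-specific intervals held the Runx letters. The exact permutation p of the sum of both differences was 0.0167 for each of the 2 intervals, the smallest possible, which 548 of 71400 intervals reached, with an adjusted p of 0.811.

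Cxcr4, which binds Cxcl12, had high-ranking peaks in every type: its start site interval was in the top 3.32% or higher of every one of the 9 libraries. Its window held 4 and 3 peaks in CD4SP, 4 and 4 in NKT, 1 in each CLP library, and 2 and 1 in ILCP (difference 2.55, exact permutation p = 0.00794). An interval 9172 bp upstream was thymic-only, and the next interval, 10458 bp upstream, was open in the thymic libraries and in CLP replicates 2 and 3.

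Ccr7, the receptor of Ccl19 and Ccl21, held 5 and 7 peaks in CD4SP, 4 and 5 in NKT, 0, 3 and 4 in CLP, and 1 and 1 in ILCP (difference 3.45, exact permutation p = 0.0238; adjusted 0.146). Its start site was open in 8 of 9 libraries, all but CLP replicate 1. It ranked in the top 12.9% to 21.0% in the thymic libraries and in the top 69.1% to 96.5% in the 4 others. The peak lists differ in length, so ranks are not compared between libraries by a test.

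Ccr9, the receptor of Ccl25, held 8 and 14 peaks in CD4SP, 6 and 9 in NKT, 2, 4 and 4 in CLP, and 2 and 2 in ILCP, with its long gene model. With the RefSeq body the numbers were 4 and 7, 3 and 5, 0, 2 and 2, and 0 and 0. An interval 10319 bp upstream of its start was thymic-only, and its neighbour 12626 bp upstream was open in all 9 libraries. An interval 37214 bp upstream, inside the long gene model, was open in both CD4SP libraries alone.

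Ccr4, the receptor of Ccl17 and Ccl22, held 2 and 5 peaks in CD4SP, 2 and 5 in NKT, 0, 3 and 3 in CLP, and 1 and 1 in ILCP (difference 1.9, exact permutation p = 0.127), so its peak numbers overlapped between organs. Its start site interval, centred 55 bp upstream of the start, did not: it was thymic-only and in the top 15.9% to 23.8% of the 4 libraries. An interval 4815 bp upstream was open in the ILCP libraries alone (top 89.7% and 72.3%).

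Cxcr5, the receptor of Cxcl13, held 2 and 4 peaks in CD4SP, 3 and 5 in NKT, 0, 1 and 1 in CLP, and 1 and 2 in ILCP (difference 2.5, exact permutation p = 0.0159). Its start site was open in both NKT libraries (top 81.6% and 69.9%), in ILCP replicate 2, and in no CD4SP or CLP library. Thymic-only intervals lay 6866 bp upstream and 10659 bp downstream of the start, the first in the top 14.4% to 22.9%.

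In the cluster of inflammatory receptors on chromosome 9, Ccr1 and Ccr3 held few peaks. Ccr2, the receptor of Ccl2, held 3 peaks in each thymic library, 0, 2 and 1 in CLP and 0 in both ILCP libraries (difference 2.4, exact permutation p = 0.0159), with a thymic-only interval 1569 bp upstream of the start. Ccr1 held 1 peak in each NKT library, 8328 bp downstream of its start, and none elsewhere. Ccr3 held 1 peak in each CD4SP library, in CLP replicate 2 and in CLP replicate 3.

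At other receptor genes, sites were open in CLP alone, in NKT alone or in a mix of types. Cxcr3 (ENSMUSG00000050232.6), the receptor of Cxcl9 and Cxcl10, held a single interval, over its start site, open in the 3 CLP libraries (top 95.3%, 43.5% and 42.5%) and in no other library. Ccr6, the receptor of Ccl20, held 0 and 1 peaks in CD4SP, 1 and 1 in NKT, 1, 4 and 3 in CLP, and 2 and 1 in ILCP. An exonic Ccr6 interval 13265 bp downstream of the start was open in the 3 CLP libraries alone, and an interval 7319 bp upstream in both NKT libraries alone. An interval 10251 bp upstream of Xcr1, the receptor of Xcl1, was open in the 4 thymic libraries (top 22.1% to 40.3%) and both ILCP libraries (top 81.2% and 94.6%), but in no CLP library. Cxcr2 held 3 and 2 peaks in CLP replicates 2 and 3, 1 in CD4SP replicate 2, 1 in NKT replicate 1 and none elsewhere. Ccr10, which overlaps Cntnap1, held 2 and 2 peaks in CD4SP, 2 and 3 in NKT, 0, 1 and 2 in CLP and 0 in ILCP. Its NKT-specific interval lay at the start site of Cntnap1.

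Ligand genes held 3 of the 6 CLP-specific and 8 of the 13 ILCP-specific intervals, 3 of the 8 in the long gene model of Ccl1 (classes defined below). Ccl3 and Ccl4 are neighbouring inflammatory ligands. The start site of Ccl3 (ENSMUSG00000000982.5) was open in the 3 CLP libraries (top 65.5%, 52.0% and 46.0%) and in no other. That of Ccl4 was open in the 3 CLP libraries (top 43.4%, 42.1% and 29.5%) and in NKT replicate 2 (top 88.0%). The start site of Xcl1 (ENSMUSG00000026573.7), the ligand of Xcr1, was open in both ILCP libraries (top 63.0% and 90.04%) and in NKT replicate 2 (top 92.6%), while an interval 1499 bp downstream was thymic-only. The promoters of Cxcr3, Ccl3 and Xcl1 are shown because their start sites separated CLP from ILCP, in the same form as above.
Cxcr3 promoter (chrX:101734270-101734519, - strand): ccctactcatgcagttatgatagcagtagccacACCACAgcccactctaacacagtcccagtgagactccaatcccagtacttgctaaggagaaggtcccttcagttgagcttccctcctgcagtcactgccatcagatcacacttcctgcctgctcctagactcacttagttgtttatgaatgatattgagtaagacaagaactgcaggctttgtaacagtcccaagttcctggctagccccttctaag
Ccl3 promoter (chr11:83649379-83649628, - strand): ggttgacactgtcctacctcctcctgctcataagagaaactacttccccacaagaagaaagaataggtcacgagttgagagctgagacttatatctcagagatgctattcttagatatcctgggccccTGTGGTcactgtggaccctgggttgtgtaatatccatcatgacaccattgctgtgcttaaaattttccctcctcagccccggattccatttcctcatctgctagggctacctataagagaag
Xcl1 promoter (chr1:164935528-164935777, - strand): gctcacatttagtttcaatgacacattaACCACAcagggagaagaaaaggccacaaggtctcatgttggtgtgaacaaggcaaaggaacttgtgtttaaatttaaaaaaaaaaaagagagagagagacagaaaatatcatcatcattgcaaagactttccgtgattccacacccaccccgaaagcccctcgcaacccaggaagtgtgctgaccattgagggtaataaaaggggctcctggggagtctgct
Each of the 3 held a Runx match and no match to the other letters.

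Some of the CXC ligands on chromosome 5 were open in several types, whereas Cxcl13 held no peak in any library. The start site of Cxcl9, an interferon-induced ligand of Cxcr3, was open in both ILCP libraries (top 37.2% and 42.1%), both NKT libraries and CD4SP replicate 1, and in no CLP library. Its neighbour Cxcl10 was open at the start site in 8 of 9 libraries, all but CLP replicate 1, and an interval 4818 bp upstream of it, inside Art3, was open in all 9. The start site of Cxcl3 was open in both NKT libraries, CLP replicates 2 and 3 and both ILCP libraries, and in no CD4SP library. Its interval also lies in the window of Cxcl15.

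Among homeostatic ligands, Ccl25 held 3 or 4 peaks in each of the 9 libraries, and its outermost start site shares an interval with that of Elavl1. An interval 1412 bp upstream of an inner Ccl25 start was open in the 3 CLP libraries alone (top 65.2%, 30.7% and 33.0%). Another, 5682 bp upstream of the outer start and inside Elavl1, was open in both ILCP libraries alone. An interval 1495 bp upstream of Cxcl12 was open in both NKT, all 3 CLP and both ILCP libraries, and in no CD4SP library. It ranked no higher than the top 59.1% anywhere.

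Some ligand windows also held intervals at the start sites of neighbours: Il11ra1 in that of Ccl27a, Lipe in that of Cxcl17 and Med11 in that of Cxcl16. Which gene such a peak belongs to was not tested. The Ccl1 window held 3 ILCP-specific intervals, 15310, 26569 and 34809 bp upstream of the RefSeq start, all inside the long gene model. With the RefSeq body, Ccl1 held 1 and 3 peaks in CD4SP, 1 and 2 in NKT, 0, 1 and 1 in CLP and 1 and 2 in ILCP. Ccl17 held a thymic-only interval 7870 bp upstream of its start. Ccl5, a ligand of effector lymphocytes, held 1 peak, in ILCP replicate 1. No peak was found in the windows of Ccl2, Ccl6, Ccl8, Ccl12, Ccl19, Ccl20, Ccl21a, Ccl21b, Ccl22, Ccl24, Ccl26, Ccl27b, Cxcl13, Cxcl14 and, among receptors, Cxcr1. Reads from the near-identical copies of Ccl19, Ccl21 and Ccl27 on chromosome 4 may be split or discarded in alignment, so their lack of peaks is uncertain.

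Among the atypical receptors, Ackr3 (ENSMUSG00000044337.5), which takes up Cxcl12, was fullest in the progenitors. It held 0 and 0 peaks in CD4SP, 1 and 1 in NKT, 1, 3 and 3 in CLP, and 4 and 4 in ILCP. The thymic minus bone marrow difference was -2.5 (exact permutation p = 0.0317; adjusted over all genes 0.168). Its start site was open in both NKT libraries (top 68.3% and 48.5%) and in all bone marrow libraries (top 25.1% to 90.2%), and in no CD4SP library. An interval 14878 bp downstream was open in both ILCP libraries alone. Ackr2, which scavenges inflammatory CC ligands, held a thymic-only interval 7577 bp upstream and an ILCP-specific one 1487 bp upstream of its start. Ackr1 and Ackr4 held 1 and 2 intervals, each open in at most 2 libraries.

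Within each organ, intervals were counted as specific if all libraries of one type had a peak there and those of the compared type had none. NKT-specific intervals numbered 13 of 158 (8.23%, against 4.3% of all intervals) and CD4SP-specific ones 4 (2.53%, against 3.46%). ILCP-specific intervals numbered 13 (8.23%, against 6.34%) and CLP-specific ones 6 (3.80%, against 5.97%). Receptors, with 100 of the 158 intervals, held 8 of the 13 NKT-specific and the 4 CD4SP-specific ones, and ligands, with 47, held 8 of the 13 ILCP-specific ones. Of these 8, 3 lay in the long gene model of Ccl1, and with RefSeq bodies 10 member intervals were ILCP-specific. These numbers depend on the peak threshold and on single libraries. With equal numbers of the highest-scoring peaks or with the higher-scoring 50% of peaks, 2 intervals were NKT-specific, and with the latter 3 were ILCP-specific, 2 CLP-specific and 0 CD4SP-specific. Without CLP replicate 1, the library with the fewest peaks, 29 intervals were CLP-specific. Without CD4SP replicate 1 and without NKT replicate 2, 14 and 11 were CD4SP-specific, and without CD4SP replicate 2, 20 were NKT-specific. At least 1 specific interval was found at 24 of the 58 genes (41.4%), against 28.2% of all protein-coding genes. Only 9 member intervals (5.70%) were open in all 9 libraries, against 13.3% of all intervals.

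Of the 158, 31 lay within 1 kb of a member's start site, 18 of another gene's alone, 63 elsewhere in a gene and 46 between genes. The share near any start site was 31.0%, against 20.7% of all intervals. Gene windows take in start sites by rule, whereas all intervals include those far from genes. This difference therefore cannot be read as a trait of these genes. In the central 300 bases, Runx letters were present in 42.4% of member intervals (36.6% of all), GATA in 27.8% (23.0%), E-box in 42.4% (37.2%), Tcf/Lef in 10.8% (14.2%), T-box in 3.80% (1.97%) and Ets in 6.96% (10.9%). Runx letters were found in 11 of the 13 ILCP-specific member intervals and in 64.4% of all ILCP-specific intervals, and in 11 of the 20 thymic-only ones against 32.1% of all thymic-only intervals. With the central 200 bases searched, the last was 6 of 20 against 24.4%. These shares are descriptions without a test.

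Genes that act downstream of the receptors were counted in the same way. Of 30 such genes (G protein subunits, arrestins, receptor kinases, RGS proteins, Dock2, Elmo1 and others), 18 (60%) held at least 1 specific interval, against 28.2% of all protein-coding genes, but they also held more intervals, a median of 6 a gene against 2. CLP-specific intervals were found at 13 of them (43.3%, against 12.9% of all genes), ILCP-specific at 6 (20%, against 11.2%), NKT-specific at 5 (16.7%, against 9.09%) and CD4SP-specific at 4 (13.3%, against 6.70%). Rgs10, a regulator of G protein signalling, held 6 and 11 peaks in CD4SP, 8 and 11 in NKT, 1, 5 and 4 in CLP, and 0 and 1 in ILCP. Tiam1, which activates Rac, held 4 ILCP-specific intervals, the most of the list. Rgs10 and Tiam1 were chosen after their values were seen.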

How the data were processed

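Per the labels and the study's methods, the authors sorted the cells, treated nuclei with Tn5 transposase (Nextera), aligned reads to mm10 with bowtie and ran MACS on each library by itself. The submitters' processing notes also name Picard, without a role, and HOMER, which the methods give for the ChIP-seq tracks. Tool versions and peak settings are not given in the sources used here. The deposited files list each peak's position and a score by the authors' peak caller, which reaches a ceiling of about the same value in every library. Scores were therefore used only as ranks within a library (the percentage of its peaks that score as high or higher). The methods call the replicates biological; whether animals were pooled is not given. Files of 2 further libraries, for Runx1 ChIP-seq and its input, were not analysed here, nor was 1 ligand gene. Results of some other genes are counted in the totals and not reported here.

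Gene bodies came from GENCODE vM21 (GRCm38), with RefSeq bodies of GRCm38.p6 as an alternative. All 58 genes matched RefSeq, and 44 had an entry in its promoter table. Overlapping peaks (minimum 1 bp) were merged across the 9 libraries into intervals, each counted as open where the library had a peak overlapping it. Numbers of peaks were compared by exact two-sided permutation of the library labels (NKT and CD4SP labels exchanged within the thymus, ILCP and CLP labels within bone marrow, thymic and bone marrow labels over all 9), with Benjamini-Hochberg adjustment over all genes or intervals tested. No count model was used, because the files hold no read counts, and the number of libraries limits the precision. Distances are from the middle of an interval to the start in RefSeq's promoter table, or else in the shorter gene body. Classes, merging and tests were checked on simulated data. Genes were named if they held a specific interval (up to 25), belonged to a list of 23 genes with known roles in these tissues, had no peak, or were neighbours with a start site or body at a named interval. The members and all lists were chosen with earlier results of these data known. The comparison of thymic with bone marrow libraries, the thymic-only class and the RefSeq bodies were added after seeing the data. Analyses used Python 3.11.15, numpy 2.4.6, pandas 2.3.3, scipy 1.17.1 and pysam 0.24.0.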

Additional observations from a re-analysis of the deposited data

How the results depend on the processing

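Of 285 results under an alternative setting, 230 kept their direction and their side of the threshold, or moved little. The thymic excess of receptor peaks kept both under each setting tried (9.21 to 10.4 peaks per 10,000 with 1 library left out, 5.43 with unextended bodies), as did that of all member peaks (7.75 to 9.62, 4.39 with unextended bodies and 5.30 with RefSeq bodies). The methods give a range of read numbers but not the depth of each library, and a missing peak is a site not called, which need not be closed.

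The ligand difference passed the threshold with equal numbers of the highest-scoring peaks (-2.33), unextended gene bodies (-0.808) and the higher-scoring 50% of peaks (-1.74), and ranged from -1.32 to -0.369 with 1 library left out. ILCP minus CLP turned to 4.5 peaks with equal peak numbers and 1.67 per 10,000 peaks, and NKT minus CD4SP to -4.5 without CD4SP replicate 1 (range with 1 library left out -4.5 to 23.5, and -19 to -1 for ILCP minus CLP). The difference of both differences turned to -2.5 with equal peak numbers (2.83 to 30.8 with 1 library left out). Their sum was 0 with 20 kb windows, -1.5 with 5 kb windows, -5.17 with unextended bodies and -0.5 by midpoint, and -11.8 to 16.2 with 1 library left out, being -11.8 without CD4SP replicate 1, -9.5 without CLP replicate 1 and -6.33 without NKT replicate 2. The cause was not tested.

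Specific intervals were fewer with the higher-scoring 50% of peaks (CD4SP 0, CLP 2, ILCP 3, NKT 2, NKT and ILCP 0, thymic-only 13). With unextended bodies most classes were smaller (CD4SP 2, ILCP 6, NKT 7, NKT and ILCP 0, thymic-only 11) and CLP stayed at 6. With equal peak numbers CD4SP fell to 1 and NKT to 2, while CLP stayed at 6, NKT and ILCP at 2, and ILCP was 10 and thymic-only 14. The reason was not tested. Specific intervals were more when 1 open replicate was enough (CD4SP 15, CLP 41, ILCP 21, NKT 23, NKT and ILCP 5, thymic-only 69). With 5 kb windows, 1 interval was shared by NKT and ILCP and 13 were thymic-only, and by midpoint 1 was shared. With CLP replicates 2 and 3 deciding, 29 were CLP-specific. With 1 library left out, the ranges were 4 to 14 (CD4SP), 6 to 29 (CLP), 13 to 17 (ILCP), 13 to 20 (NKT), 2 to 3 (NKT and ILCP) and 20 to 25 (thymic-only). Genes past the unadjusted threshold for the sum numbered 3 with 20 kb windows, 2 with equal peak numbers, 0 with unextended bodies and 0 with the higher-scoring 50% of peaks, and 0 to 4 with 1 library left out, while those of the thymic comparison (12 members in either direction) numbered 7 to 10, the 7 without CLP replicate 2. Runx and E-box shares moved with the central 200 bases searched.

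Replicate numbers are shared by the compared types, and deviations of same-numbered libraries correlated at 0.177 (NKT and CD4SP) and -0.0107 (ILCP and CLP) over all intervals, and at 0.296 and -0.0267 over member intervals. The thymic libraries thus deviated together and those of bone marrow did not, and with 2 numbers and no label of a shared animal or day the numbers were not taken as pairs. With the replicate block, NKT minus CD4SP was 9.5, ILCP minus CLP -1, their sum 8.5 and their difference 10.5, and no call changed.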
